A study of Mus musculus with 5 samples.

Results

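Chemokines and their receptors were followed through the lungs of 5 strains of naive female mice, with 1 array of pooled RNA for each strain. Members were the genes whose symbol in the platform annotation starts with Ccl, Cxcl, Ccr or Cxcr followed by a digit, together with Cx3cl1, Cx3cr1, Xcl1 and Xcr1. Ccl25, Ccr9, Ccl5, Cxcl5 and Cxcr2 were left out of the set, as were 4 probe sets whose annotation joins several gene symbols, among them those for Ccl19 and Ccl21. This left 45 genes, 30 ligands and 15 receptors, out of 18194 genes on the array, measured by 68 probe sets. The reference strain was C57BL/6J, written C57. The lines 4B(+/+) and 4B(-/-) are wild type and knockout for PDE4B, and 4D(+/+) and 4D(-/-) are wild type and knockout for PDE4D. These enzymes are phosphodiesterases that break down cyclic AMP. All 4 lines came from a mixed C57BL/6 and 129/Ola background and had at least 11 generations of backcrossing to C57BL/6J, so the wild-type lines share that history with the knockouts. No animal received elastase. RNA of 3 of 5 lungs was mixed per strain, so the spread between animals cannot be seen, nothing below was tested, and no p-value is given.

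Chemokines are small secreted proteins that direct the movement of leukocytes along their gradients. They are sorted into CC, CXC, CX3C and XC families by the spacing of their first cysteines, and they act through receptors coupled to inhibitory G proteins, which lower cyclic AMP. In the lung, some are made without stimulus by epithelium and stroma and keep lymphocytes, dendritic cells and macrophages in place, while others are induced in injury or infection and bring in monocytes and neutrophils. Many of the induced ones are transcribed through the factor NF-kB.

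Promoters of 4 members are shown because Ccl20, Cxcl1 and Ccl9 were the members over the expression floor with a match to the NF-kB motif, and because Ccl28 had the widest range of all members over the 5 arrays. The sequences are RefSeq's for GRCm38.p6 and run from 250 bases before to 50 bases after the start of the gene, written on the strand of the gene. They lie at chr1:83116516-83116815 on the plus strand for Ccl20, chr5:90890995-90891294 on the plus strand for Cxcl1, chr11:83578587-83578886 on the minus strand for Ccl9 and chr13:119623569-119623868 on the plus strand for Ccl28. Capitals mark the NF-kB motif, taken as GGG, any 2 bases and then TTTCC, and TGACG, a part of the cyclic AMP response element, each read on both strands.
Ccl20: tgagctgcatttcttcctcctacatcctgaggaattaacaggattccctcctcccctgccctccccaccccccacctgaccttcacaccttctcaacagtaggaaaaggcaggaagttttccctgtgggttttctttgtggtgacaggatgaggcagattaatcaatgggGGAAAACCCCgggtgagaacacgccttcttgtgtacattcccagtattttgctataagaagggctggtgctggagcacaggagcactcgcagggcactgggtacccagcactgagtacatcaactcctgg
Cxcl1: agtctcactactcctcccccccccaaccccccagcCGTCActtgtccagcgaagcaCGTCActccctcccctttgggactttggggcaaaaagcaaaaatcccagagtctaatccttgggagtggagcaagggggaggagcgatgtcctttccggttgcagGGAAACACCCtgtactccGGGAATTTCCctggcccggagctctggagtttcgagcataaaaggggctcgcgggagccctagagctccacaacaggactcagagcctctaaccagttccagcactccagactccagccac
Ccl9: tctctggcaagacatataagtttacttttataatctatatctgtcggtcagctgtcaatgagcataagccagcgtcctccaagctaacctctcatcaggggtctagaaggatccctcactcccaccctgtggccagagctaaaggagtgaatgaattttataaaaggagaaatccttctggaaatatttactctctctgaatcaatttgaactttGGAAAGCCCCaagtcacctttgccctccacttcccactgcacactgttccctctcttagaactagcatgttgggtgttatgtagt
Ccl28: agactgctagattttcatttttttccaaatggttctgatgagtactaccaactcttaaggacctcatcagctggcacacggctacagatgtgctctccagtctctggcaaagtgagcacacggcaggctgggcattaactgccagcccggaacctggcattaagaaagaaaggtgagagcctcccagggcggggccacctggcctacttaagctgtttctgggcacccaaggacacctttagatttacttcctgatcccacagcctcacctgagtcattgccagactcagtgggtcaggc
The match in Ccl20 is GGAAAACCCC on the opposite strand, and it starts 80 bases before the gene. Cxcl1 holds GGAAACACCC at 89 bases and GGGAATTTCC at 71 bases before the gene, with 2 copies of TGACG on the opposite strand farther out. Ccl9 holds GGAAAGCCCC, again the opposite strand of the motif, at 35 bases before the gene, and Ccl28 has neither motif in this window. No matches overlapped one another. The NF-kB motif was found in 6 of the 34 members with a promoter in the table, 17.6%, against 1.89% of all genes there, and the other 3 of the 6, Cxcl2, Cxcl3 and Ccr3, were below the floor. The full element TGACGTCA was found in 0 of the 34 and in 2.03% of all genes. Its part TGACG was found in 7 of them, 20.6%, against 23.0% of all genes. A match is a run of letters and not a measured site.

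The authors deposited RMA intensities, in which background is corrected and the arrays are given equal distributions. The median intensity of the arrays was 45.4 to 46.6. A gene stood for its brightest probe set and was counted when it reached an intensity of 64 in at least 1 array, which held for 27 members, 18 ligands and 9 receptors, and for 11500 genes in all. Lung genes were bright in every array, with surfactant protein C (Sftpc) at 24527 to 24896 and the alveolar type 1 gene Ager at 18484 to 20143. Signal for both targeted genes was present throughout, with Pde4b at 457 in 4B(-/-) and from 438 to 558 elsewhere, and Pde4d at 386 in 4D(-/-) and from 456 to 523 elsewhere. The labels do not say which part of either gene was deleted, so these probes do not settle the genotype. Genes of other tissues differed widely between the pools, and the summed intensity of 9 skeletal muscle genes ran from 3212 in 4B(-/-) to 32058 in 4D(+/+).

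Of the 27 members over the floor, 8 differed by at least 1.5-fold between their highest and lowest array, against 13.8% of all genes over the floor, and 3 by at least 2-fold, against 3.55%. The median of this ratio was 1.41 over the members and 1.22 over all genes. The 8 were the mucosal ligands Ccl28, Ccl20 and Cxcl17, the lymphoid ligand Cxcl13, the monocyte attractant Ccl8, the interferon-inducible Cxcl9 and the receptors Ccr2 and Ccr7. Of these, Ccl28, Ccl20 and Cxcl9 were below the floor in some arrays and were counted through the others. The remaining 19 lay between 1.16-fold for Cxcl12 and 1.47-fold for Cxcr5.

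**Figure D1:**
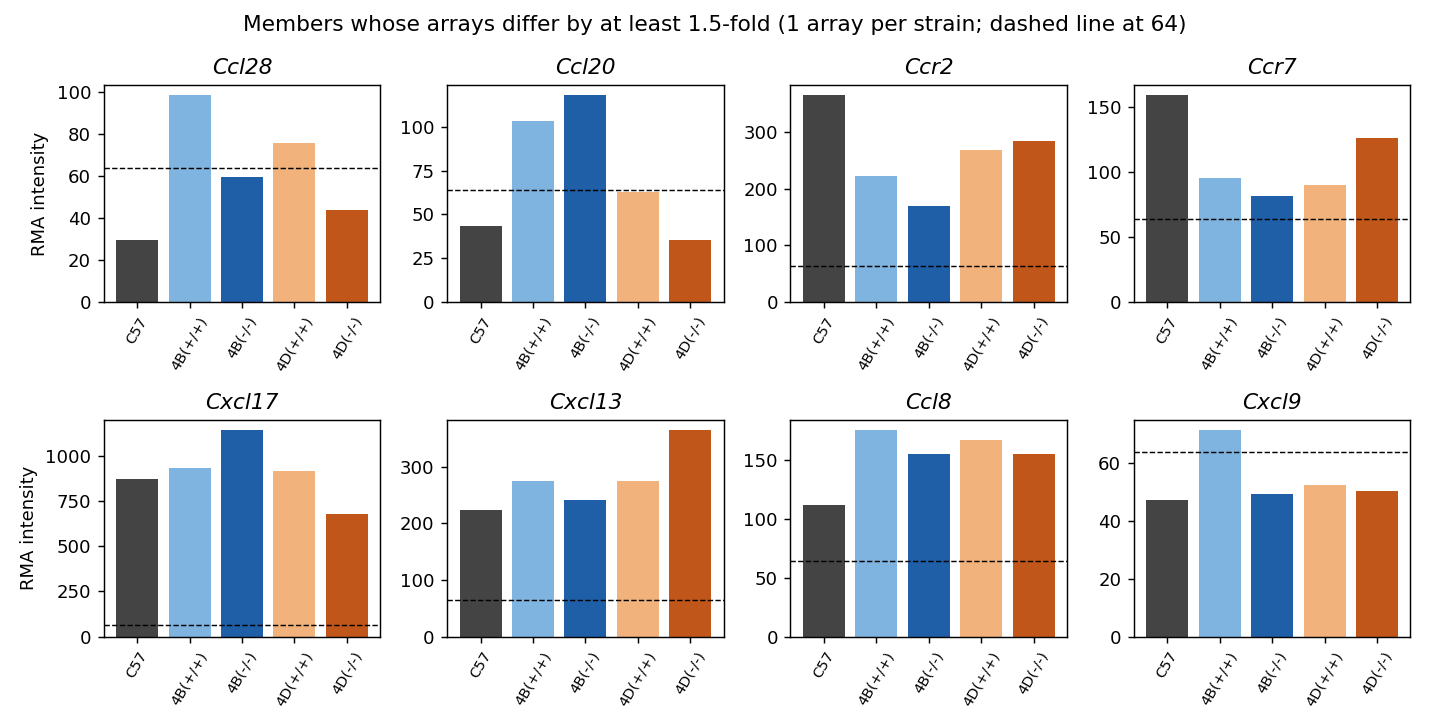
RMA intensity of the 8 members whose highest and lowest array differed by at least 1.5-fold, with 1 bar for the single array of each strain and a dashed line at the floor of 64. Ccl28 and Ccl20 cross the floor between arrays, from 29.4 to 98.6 and from 35.3 to 118, while Ccr2 and Cxcl13 are above it in every array.

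The mucosal ligands held the widest ranges. Ccl20, the ligand of Ccr6 that epithelium makes to attract dendritic cells and lymphocytes, read 43.6 in C57, 103 in 4B(+/+), 118 in 4B(-/-), 62.5 in 4D(+/+) and 35.3 in 4D(-/-). Both PDE4B lines were thus above the floor, and the other 3 arrays were below it. It was 1.77-fold lower in 4D(-/-) than in 4D(+/+) and 1.14-fold higher in 4B(-/-) than in 4B(+/+), and the knockouts themselves differed by 3.34-fold. Its receptor Ccr6, carried by B cells and some T and dendritic cells, stayed within 1.17-fold, with 73.5 in C57, 69.9 in 4B(+/+), 68.6 in 4B(-/-), 63.4 in 4D(+/+) and 73.9 in 4D(-/-). The receptor was lowest in 4D(+/+), an array in which Ccl20 was neither highest nor lowest.

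Ccl28, a ligand of Ccr10 and Ccr3 made by epithelium of airways and exocrine glands, read 29.4 in C57, 98.6 in 4B(+/+), 59.6 in 4B(-/-), 75.6 in 4D(+/+) and 43.6 in 4D(-/-). Each knockout was below its own wild-type line, by 1.65-fold for PDE4B and 1.73-fold for PDE4D, and every line was above C57. Only the wild-type lines reached the floor, so the folds rest on dim values. Its other 2 probe sets stayed below the floor in every array and differed by 1.31-fold and 1.38-fold at most. The known receptors Ccr10 and Ccr3 stayed below the floor, at no more than 36.7 and 6.83.

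Ccl28 lies on the chromosome of Pde4d, with 42 protein-coding genes between them in the RefSeq order, and 3 genes separate it from Nnt on one side. Nnt, the mitochondrial transhydrogenase that C57BL/6J mice carry in a defective form, read 1212 in 4D(-/-) and from 345 to 569 elsewhere. The gene beside Ccl28, Tmem267, read 29.6 in 4D(-/-) and 79.4 to 124 elsewhere, and 4833420G17Rik read 251 against 464 to 510. These 3 genes had their most extreme value in 4D(-/-), whereas Hmgcs1 on the other side of Ccl28 stayed within 1.31-fold and Ccl28 itself was lowest in C57. The sum of the 7 cartilage markers, all over the floor, shared with Ccl28 its lowest array, at 387 in C57, and its highest, at 1540 in 4B(+/+), with 880 to 987 in the other 3 arrays. Comp, at 119 in C57 and 624 in 4B(+/+), was the largest part of that sum. Col2a1 was lowest in 4D(+/+), at 35.0 against 42.0 in C57, while the other genes of the list were lowest in C57. The 6 thyroid, parathyroid and gland markers over the floor summed to 1370 in 4B(-/-), 12213 in C57, 12531 in 4D(-/-), 23250 in 4B(+/+) and 36449 in 4D(+/+), so the wild-type lines were highest there as well. The part of this stretch of chromosome and of these tissues in the level of Ccl28 was not tested.

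Cxcl17, a chemokine of mucosal epithelium linked to macrophage recruitment, read 873 in C57, 934 in 4B(+/+), 1144 in 4B(-/-), 917 in 4D(+/+) and 681 in 4D(-/-). The 3 wild-type arrays lay close together, with the PDE4B knockout above them and the PDE4D knockout below. It was 1.22-fold higher in 4B(-/-) and 1.35-fold lower in 4D(-/-) than in the own wild-type line, and 1.68-fold apart between the knockouts. The arrays stood in the same order for Cxcl17 and Ccl20, from 4B(-/-) down through 4B(+/+), 4D(+/+) and C57 to 4D(-/-).

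That order was also the order of the summed markers of ciliated airway cells, of which 4 of 5 measured reached the floor and Dnah5 did not. Their sum was 5464 in 4B(-/-), 4950 in 4B(+/+), 4905 in 4D(+/+), 4371 in C57 and 3962 in 4D(-/-). Tppp3 and Tmem212 make up most of this sum, while Ccdc39 ran the other way, from 179 in 4B(-/-) to 234 in 4D(-/-), and Foxj1 was lowest in C57, at 282. The 9 markers of airway secretory cells, all over the floor, summed to 88980 in 4D(-/-), 89077 in C57 and 97109 to 100537 in the other 3 arrays. Among them Lypd2 ran from 933 in 4D(-/-) to 2014 in 4B(-/-), but Muc5b, at 511 in 4B(-/-) and 946 in 4D(-/-), and Bpifb1, at 2613 and 3764, were highest in 4D(-/-), as was Scgb1a1. The part of airway tissue in the levels of Ccl20 and Cxcl17 was not tested, and in whole lung fewer cells of a type and less RNA per cell cannot be told apart.

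The other mucosal and membrane-bound ligands had narrower ranges. Cxcl16, a transmembrane ligand of Cxcr6, read 278 in C57, 310 in 4B(+/+), 372 in 4B(-/-), 315 in 4D(+/+) and 309 in 4D(-/-), highest in the PDE4B knockout. Cxcl14, an epithelial and stromal chemokine, was 1.42-fold at most between arrays, with 332 in C57 and 324 in 4D(-/-) at the top and 234 in 4B(+/+) at the bottom. Cx3cl1, the membrane-bound ligand of Cx3cr1, stayed between 183 and 212, and Xcl1 of T and NK cells did not reach the floor.

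**Figure D2:**
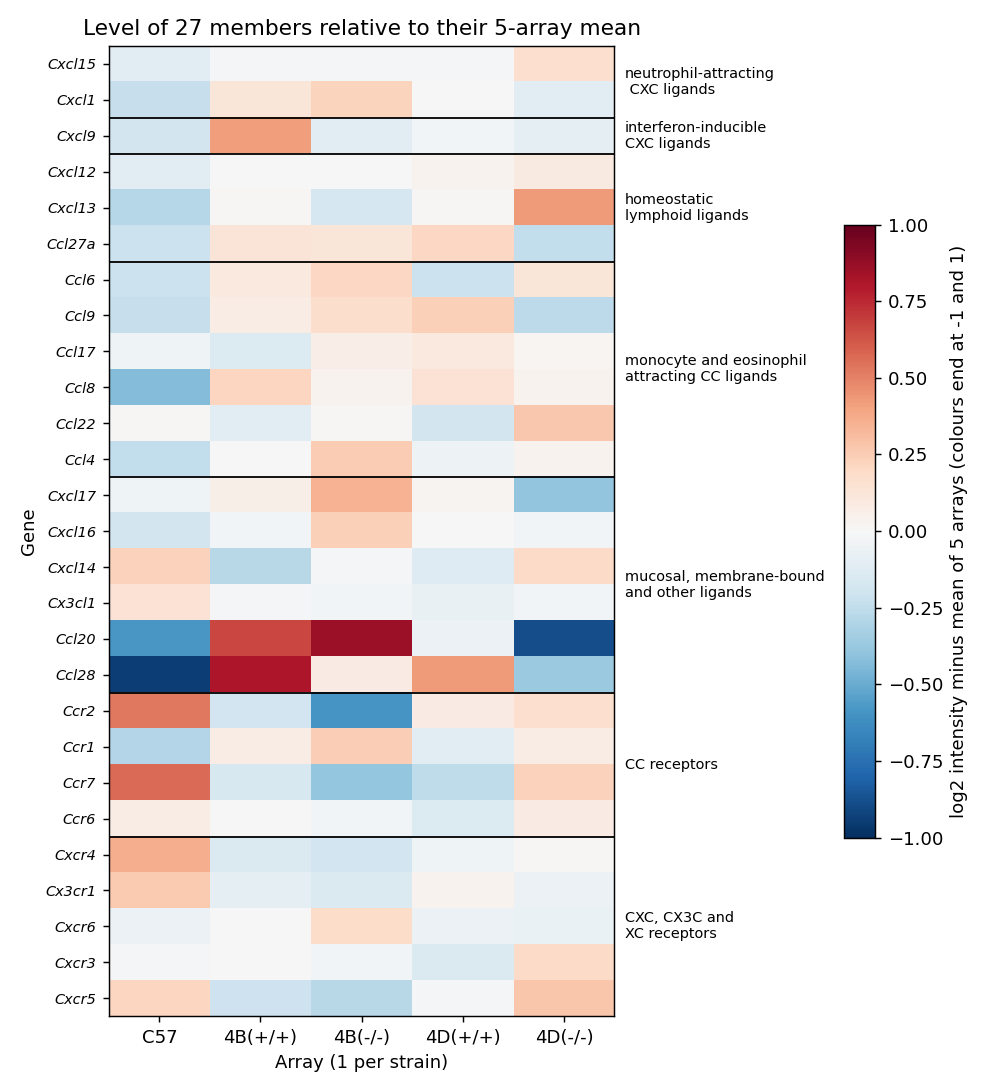
Log2 intensity of the 27 members over the floor in each array, minus the mean of the 5 arrays of that gene, grouped by role, with blue below and red above the mean. The deepest colours belong to Ccl20 and Ccl28, and the C57 column is blue for most ligands and red for Ccr2, Ccr7, Cxcr4 and Cx3cr1.

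Among the homeostatic lymphoid ligands, Cxcl13, which draws B cells into follicles through Cxcr5, read 224 in C57, 275 in 4B(+/+), 242 in 4B(-/-), 275 in 4D(+/+) and 365 in 4D(-/-). The PDE4D knockout was the highest array, 1.33-fold above its wild-type line and 1.63-fold above C57. A second probe set for Cxcl13 read 109 in C57, 164 in 4B(+/+), 103 in 4B(-/-), 132 in 4D(+/+) and 132 in 4D(-/-), and did not place 4D(-/-) highest. The difference from 4D(+/+) thus rests on 1 of its 2 probe sets. Cxcl12, the stromal ligand of Cxcr4 that retains leukocytes in tissue, stayed between 777 and 898. Ccl27a, known as a ligand of skin-homing T cells, read 78.1 in C57, 99.2 in 4B(+/+), 98.6 in 4B(-/-), 105 in 4D(+/+) and 76.6 in 4D(-/-), and near-identical copies of this gene exist in the mouse, so its signal may be shared.

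Ccr7 and Cxcr4 were higher in C57 and 4D(-/-) than in the other 3 arrays. Ccr7, which guides naive T cells, B cells and mature dendritic cells to lymph nodes, read 159 in C57, 95.7 in 4B(+/+), 81.8 in 4B(-/-), 90.1 in 4D(+/+) and 126 in 4D(-/-). C57 stood above 4B(+/+) by 1.66-fold and above 4D(+/+) by 1.77-fold, and 4D(-/-) stood 1.40-fold above 4D(+/+). Cxcr5 of follicular B and T cells read 68.4 in C57, 51.1 in 4B(+/+), 48.8 in 4B(-/-), 58.5 in 4D(+/+) and 71.7 in 4D(-/-), and it entered the counts only through C57 and 4D(-/-), so its pattern lends no support to that of the others. Cxcr4, found on most leukocytes, read 322 in C57, 227 in 4B(+/+), 219 in 4B(-/-), 244 in 4D(+/+) and 253 in 4D(-/-). For all 3 receptors 4B(-/-) was the lowest array, and C57 or 4D(-/-) the highest.

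B-cell markers stood in nearly the same order as Ccr7. Of 9 measured, 6 were over the floor and Cd79a, Cr2 and Pax5 were not, and their sum was 1454 in C57, 1230 in 4D(-/-), 942 in 4D(+/+), 917 in 4B(+/+) and 832 in 4B(-/-). The B-cell antigen CD20 (Ms4a1) alone ran from 585 in C57 to 340 in 4B(-/-). The 7 dendritic cell markers, leaving out the member Ccl22, summed to 2084 in 4D(-/-), 1692 in C57 and 1259 to 1402 in the other arrays. Fscn1, at 989 in 4D(-/-) and 399 in 4B(-/-), was the largest part of that sum, and Cd209a ran otherwise, from 128.2 in C57 to 192 in 4D(+/+). Glycam1, a mucin of the venules through which lymphocytes enter lymph nodes, read 588 in C57, 87.2 in 4B(+/+), 16.4 in 4B(-/-), 85.2 in 4D(+/+) and 1116 in 4D(-/-), while Madcam1, Chst4, Ubd, Fut7 and Tnfsf11 of the same list stayed below the floor. Bst1, the other gene of that list over the floor, read 125 to 149 and did not follow Glycam1, with 148 in 4B(-/-). T-cell markers did not follow this order, with a sum of 1247 in 4B(-/-) and 773 to 874 elsewhere. Of them Cd3d, Cd3g, Cd8a and Cd8b1 were highest in 4B(-/-), while Cd3e, Cd4 and Cd2 were highest in 4D(-/-). The 4 thymocyte markers over the floor, among them Rag1 and Dntt, likewise summed to 1041 in 4B(-/-) and 373 to 614 elsewhere. Rag2 and Ptcra of that list were below the floor. The part of lymphoid tissue in the receptor levels was not tested.

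**Figure D3:**
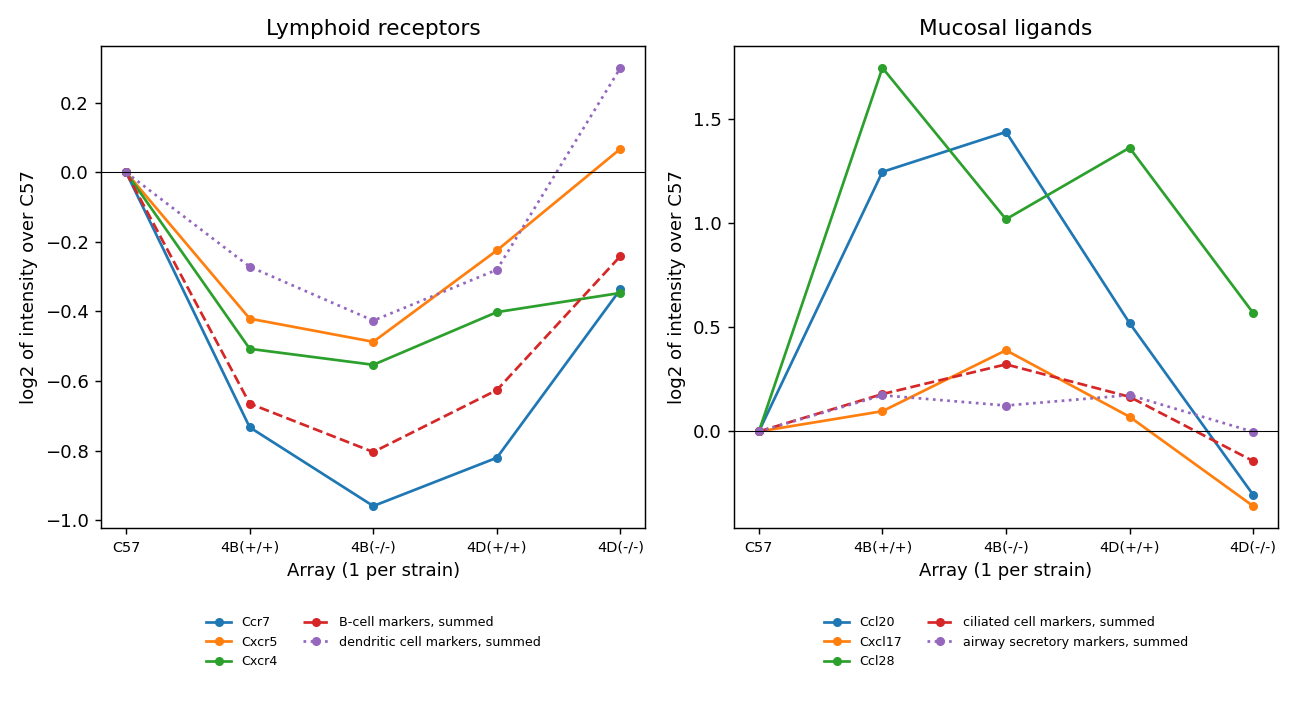
Log2 of intensity over the C57 array for 3 lymphoid receptors with summed B-cell and dendritic cell markers (left), and for 3 mucosal ligands with summed ciliated and airway secretory markers (right), with 1 point per array. On the left all lines are lowest in 4B(-/-), where Ccr7 is -0.96, and on the right Ccl20 reaches 1.44 in 4B(-/-) and -0.30 in 4D(-/-).

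Of 13 ligands that attract monocytes, eosinophils or T helper cells, 6 reached the floor. Ccl6, a CC chemokine of rodent myeloid cells, read 1706 in C57, 2126 in 4B(+/+), 2293 in 4B(-/-), 1710 in 4D(+/+) and 2150 in 4D(-/-), lowest in C57 and 4D(+/+). Its second probe set read 722 in C57, 774 in 4B(+/+), 786 in 4B(-/-), 551 in 4D(+/+) and 933 in 4D(-/-). By that probe set Ccl6 was 1.69-fold higher in 4D(-/-) than in 4D(+/+), past the fold used for counting. Ccl9, a related macrophage product that binds Ccr1, read 323 in C57, 400 in 4B(+/+), 429 in 4B(-/-), 449 in 4D(+/+) and 317 in 4D(-/-). It was 1.41-fold lower in 4D(-/-) than in 4D(+/+), and its second probe set, at 137 in 4D(+/+) and 90.7 in 4D(-/-), also placed 4D(-/-) lowest. C57 and 4D(-/-) were the lowest arrays for Ccl9, Ccl20 and Cxcl1, whose promoters are shown above, and also for Ccl28, Cxcl17, Ccl27a and Cxcl16. These 7 of 27 members, 25.9%, compare with 22.4% of all genes over the floor.

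Ccl8, which acts on monocytes and, in the mouse, on Ccr8 of T helper cells, read 112 in C57, 176 in 4B(+/+), 155 in 4B(-/-), 167 in 4D(+/+) and 155 in 4D(-/-). C57 was the lowest and all 4 lines lay close together, between 1.38-fold and 1.56-fold above it. Ccl4, which attracts macrophages and NK cells, was also lowest in C57, at 55.1, and highest in 4B(-/-), at 77.7. The Ccr4 ligands of dendritic cells and macrophages stayed closer, Ccl17 between 158 and 186 and Ccl22 between 73.8 and 101, and Ccl22 was highest in 4D(-/-).

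Ccr2, the receptor that brings monocytes out of marrow and into tissue, read 365 in C57, 222 in 4B(+/+), 169 in 4B(-/-), 268 in 4D(+/+) and 284 in 4D(-/-). C57 was highest and the PDE4B lines lowest, with 4B(-/-) 1.32-fold below 4B(+/+) and 2.16-fold below C57. A second probe set over the floor stayed between 83.2 and 91.2 in all arrays and did not show this. Its ligands Ccl2, Ccl7 and Ccl12 were below the floor. The 8 markers of monocytes and interstitial macrophages, all over the floor, summed to 23966 to 24864, most of it from Lyz2, which stayed within 1.03-fold. Cd14 of the same list ran against Ccr2, from 556 in C57 to 867 in 4B(+/+), and the other 6 stayed within 1.29-fold. Ccr1, the receptor of Ccl6 and Ccl9, read 113 in C57, 145 in 4B(+/+), 164 in 4B(-/-), 128.1 in 4D(+/+) and 145 in 4D(-/-), opposite in its extremes to Ccr2. Cx3cr1, carried by patrolling monocytes and resident macrophages, read 139 in C57 and 105 to 119 in the lines.

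The neutrophil-attracting ligands were close to level. Cxcl15, a chemokine of mouse lung epithelium, read 10515 in C57, 11119 in 4B(+/+), 4B(-/-) and 4D(+/+), and 12657 in 4D(-/-). Cxcl1, a keratinocyte-derived attractant of neutrophils, read 88.2 in C57, 113 in 4B(+/+), 121 in 4B(-/-), 104 in 4D(+/+) and 96.4 in 4D(-/-). The neutrophil markers S100a8, S100a9, Ltf and Csf3r, the 4 of 7 measured that reached the floor, summed to 5144 in C57, 5420 in 4D(-/-), 6923 in 4B(-/-), 10244 in 4B(+/+) and 11149 in 4D(+/+). C57 and 4D(-/-) were lowest for this sum and for Cxcl1, but the sum, carried mostly by Ltf, was highest in 4D(+/+) and Cxcl1 in 4B(-/-). The part of neutrophils in the level of Cxcl1 was not tested. Cxcl2 and Cxcl3 were below the floor.

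Of the interferon-inducible ligands of Cxcr3, only Cxcl9 reached the floor, and in 4B(+/+) alone, with 47.2 in C57, 71.6 in 4B(+/+), 49.6 in 4B(-/-), 52.6 in 4D(+/+) and 50.5 in 4D(-/-). The 1.44-fold difference between the PDE4B lines and the 1.52-fold difference of 4B(+/+) from C57 therefore rest on that array. Cxcr3, the receptor of effector T and NK cells, stayed between 59.6 and 75.2, and Cxcr6, the receptor for Cxcl16, between 66.0 and 78.4 with 4B(-/-) highest, as for its ligand. Another probe set of Cxcr6, just below the floor at 53.3 to 62.6, placed 4B(-/-) lowest, so this order of the receptor rests on 1 probe set near the floor.

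The first question is how a knockout differs from the wild type of the same line. In 4B(-/-), 0 of 27 members were higher than in 4B(+/+) by at least 1.5-fold, against 0.383% of all genes over the floor, and 1, Ccl28, was lower, against 0.93%. The median log2 difference of the members was 0.00 and that of all genes 0.01. Of the others, Cxcl9 was 1.44-fold and Ccr2 1.32-fold lower, and Cxcl17 1.22-fold higher, none past the fold used for counting. In 4D(-/-), 0 members were higher than in 4D(+/+), against 1.1% of all genes, and 2, Ccl20 and Ccl28, were lower, against 4.53%. The median of the members was 0.06 and that of all genes 0.00. By the brightest probe sets all 4 CC receptors over the floor stood above the wild-type line, by a log2 difference of 0.09 for Ccr2 to 0.48 for Ccr7, where 45.6% of all genes did. The second probe set of Ccr2 was at -0.01. By second probe sets, Ccl6 at 0.76 and Ccl9 at -0.60 passed 1.5-fold, which the counts by the brightest probe sets leave out. Ccl9 was 1.41-fold and Cxcl17 1.35-fold lower. Ccl28 reached the floor only in the wild-type lines, and Ccl20 only in the PDE4B lines. They were counted through those arrays and lend no support to a knockout difference. Read against the shares of all genes, 1 and 2 of 27 members do not set the family apart from other genes. The knockout effects had opposite signs and lay at least 1.5-fold apart in 5 members, against 8.17% of all genes.

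The next question is how the wild-type lines differ from C57, and both of these comparisons use the same C57 array. In 4B(+/+), 4 members were higher than in C57 by 1.5-fold, against 2.23% of all genes, namely Ccl28 at 3.35-fold, Ccl20 at 2.37-fold, Ccl8 at 1.56-fold and Cxcl9 at 1.52-fold. Of these, Ccl28, Ccl20 and Cxcl9 were below the floor in C57 and were counted only through other arrays. They lend no support to this count. Ccr7 at 1.66-fold and Ccr2 at 1.65-fold were lower, against 1.33% of all genes, but the second probe set of Ccr2 over the floor read 86.2 in both arrays. In 4D(+/+), Ccl28 was 2.57-fold higher and Ccr7 1.77-fold lower, so that 1 member was higher, against 4.25%, and 1 lower, against 1.24%. Ccl28 lends no support here either, for the same reason. Ccl8 was 1.49-fold and Ccl20 1.43-fold higher there, and Ccr2 1.36-fold lower. The wild-type lines differed from each other by 1.65-fold for Ccl20, higher in 4B(+/+), which was 1 of 27 members past 1.5-fold lower in 4D(+/+), against 0.348% of all genes, while 0 were higher there, against 1.57%. Between the knockouts, 3 members were higher in 4D(-/-) than in 4B(-/-), against 2.8% of all genes, and these were Ccr2 at 1.69-fold, Ccr7 at 1.54-fold and Cxcl13 at 1.51-fold. By second probe sets over the floor, Ccr2 read 83.2 in 4B(-/-) and 90.7 in 4D(-/-), and Cxcl13 read 103 and 132. Neither passed 1.5-fold by these. Ccl20 at 3.34-fold and Cxcl17 at 1.68-fold were lower in 4D(-/-) than in 4B(-/-), against 2.97%. Ccl20 was below the floor in both PDE4D lines and was counted only through the PDE4B lines. Its calls between the wild-type lines and between the knockouts lend no support.

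**Figure D4:**
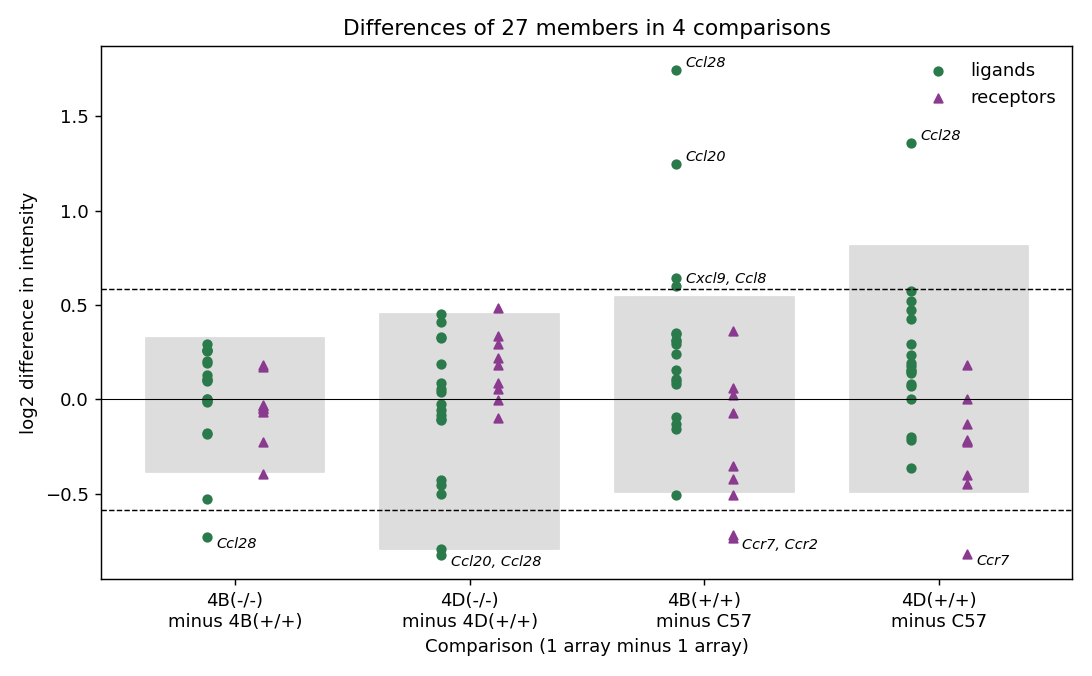
Log2 difference in intensity of the 27 members in the 4 comparisons, with ligands as circles and receptors as triangles, grey bands for the middle 95% of all 11500 genes and dashed lines at 1.5-fold. Members past the dashed lines are named. Ccl28 appears in all 4 comparisons, but each includes 4B(+/+) or 4D(+/+), the only arrays in which it reached the floor. Its repeated appearance therefore lends no support.

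Set against C57 in place of their own wild type, the knockouts differed in another way. In 4B(-/-), Ccl20 at 2.71-fold and Ccl28 at 2.03-fold were higher, against 2.53% of all genes, and Ccr2 at 2.16-fold and Ccr7 at 1.94-fold lower, against 3.57%. Ccl20 and Ccl28 were below the floor in C57 and were counted only through other arrays, so they lend no support here. The second probe set of Ccr2 over the floor read 86.2 in C57 and 83.2 in 4B(-/-). In 4D(-/-), Cxcl13 at 1.63-fold was the 1 member higher, against 1.37%, and 0 were lower, against 0.791%. The second probe set of Cxcl13 read 109 in C57 and 132 in 4D(-/-), which is short of 1.5-fold. Set against the mean of all 3 wild-type arrays, Ccl20 was higher and Ccr2 lower in 4B(-/-), against 0.504% and 1.43% of all genes, and in 4D(-/-) 0 members were higher and 1, Ccl20, was lower, against 0.661% and 1.03%. Ccl20, counted only through the PDE4B lines, lends no support there either. The series' design text looks for genes level in C57 and 4D(+/+) and different in the other 3 arrays. Taken as within 1.2-fold and at least 1.5-fold the same way, this pattern held for 0 members, against 0.0261% of all genes higher and 0% lower. Of the members, 17 of 27 were within 1.2-fold in C57 and 4D(+/+), 63.0%, against 74.8% of all genes.

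By the brightest probe sets, C57 stood outside the range of the other 4 arrays in many members, low for ligands and high for receptors. It was below every other array in 10 of 18 ligands, against 18.9% of all genes over the floor, and above every other array in 4 of 9 receptors, against 26% of all genes. The 10 ligands were Ccl28, Ccl4, Ccl6, Ccl8, Cxcl1, Cxcl12, Cxcl13, Cxcl15, Cxcl16 and Cxcl9, and several of these gaps are small, such as 777 against 838 to 898 for Cxcl12. Ccl28, Ccl4 and Cxcl9 were below the floor in C57 and were counted only through other arrays, so they lend no support to this pattern. Second probe sets over the floor placed C57 lowest for Cxcl1 and Cxcl15 but not for Ccl6, Cxcl12, Cxcl13 and Cxcl16. That of Cxcl12 read 898 in C57 and 764 to 879 in the lines. The receptors were Ccr2, Ccr7, Cxcr4 and Cx3cr1, but the second probe set of Ccr2 over the floor did not place C57 highest. In the opposite sense, C57 was above the other arrays for 2 ligands, Cx3cl1 and Cxcl14, and below them for 1 receptor, Ccr1. Second probe sets over the floor did not place C57 highest for Cx3cl1 or Cxcl14. When a gene was read as the median of its probe sets the counts were 6 of 15 ligands, against 19% of all genes, and 2 of 7 receptors, against 24.9%. With a floor of 7 on the log2 scale they were 6 of 11 ligands, against 17.8%, and 4 of 5 receptors, against 26.9%. At that floor Ccr7 and Cx3cr1 were counted only through C57, and Ccl8 only through the other arrays, so these genes lend no support there. C57 also stood apart in other genes, such as the clock output gene Dbp at 2475 against 146 to 247, and the part of that in the chemokine levels was not tested.

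Probe sets of the same gene give the only internal check of precision. In 10 members a second probe set reached the floor, which gave 40 pairs of log2 differences over the 4 comparisons. The pairs differed by a median of 0.12 on the log2 scale, or 1.08-fold, and by at most 0.72, or 1.65-fold, for Ccr2 in 4B(+/+) against C57. In 11 of the 40 pairs the signs were opposite, and in 5 only 1 of the probe sets passed 1.5-fold, in Ccl6, Ccl9, Ccr2 and, in 2 comparisons, Cxcl13. Ccl20, Ccr7, Cxcl17 and Ccl8 have a single probe set here and no such check. Exact ties between arrays occurred in 8 of the 27 members, 29.6%, and in 37.6% of all genes over the floor.

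**Figure D5:**
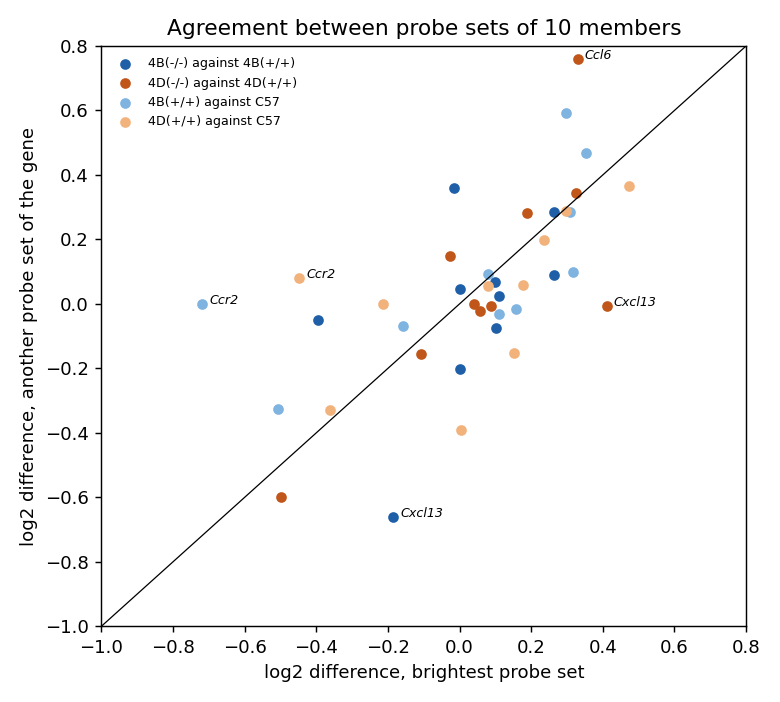
Log2 difference by the brightest probe set (horizontal) and by another probe set of the same gene over the floor (vertical), for 10 members in 4 comparisons, with the line of equality. Named points lie at least 0.40 apart on the log2 scale, and Ccr2 in 4B(+/+) against C57 is farthest from the line.

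Genes that act with the chemokines were counted past 1.5-fold in the same way. Of all genes over the floor, 0.383% to 4.53% passed in each direction of the 4 comparisons. A count of 0 in lists this short therefore does not set their genes apart. The list of atypical and related receptors holds scavengers such as Ackr2 and Ackr3, which take up chemokines, and also Cmklr1, the receptor of the non-chemokine attractant chemerin. Of its 7 genes over the floor, 0 passed in any of the 4 comparisons. The signalling list of G proteins, arrestins and kinases had 0 of 20 genes past the fold in each knockout comparison, and its median log2 difference was -0.05 for PDE4B and 0.14 for PDE4D. Against C57 it had 1 gene lower in 4B(+/+), Rgs2, where 1.33% of all genes were lower. It had 2 lower in 4D(+/+), Rgs2 and Rac2, where 1.24% of all genes were. Rgs2, a brake on G-protein signalling, read 1283 in C57 and 786 to 842 in the other arrays. The NF-kB and cytokine list had 0 of 15 genes past the fold in all 4 comparisons, with medians from -0.08 in 4D(+/+) against C57 to 0.15 in 4D(-/-). Of 9 genes that cleave or trap chemokines, the gelatinase Mmp2 was higher in 4D(-/-), at 1218 against 763, where 1.1% of all genes were. Macrophage elastase (Mmp12), at 138 in C57, was lower in both wild-type lines, at 42.8 and 52.3, both below the floor. The shares of all genes lower there were 1.33% and 1.24%.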

How the data were processed

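Whole-lung RNA was measured on 1 Affymetrix-type array per strain, labelled from 0.3 µg of pooled RNA, per the labels' protocols. The authors deposited linear intensity values after RMA, per the submitters' processing notes; its version and settings and the genome build were not given in the sources used here. Of 45101 probe sets, 34958 carried 1 gene symbol in the platform annotation, 932 several and 9211 none, and only the first were used. Intensities were converted to log2, each gene stood for its probe set of highest mean, and genes reaching 64 in at least 1 array were counted. Differences are log2 differences of 2 arrays, counted past 1.5-fold beside the same share of all genes. The number of arrays limits the precision. The counting code was run on simulated arrays with planted changes larger than 1.5-fold and little noise. That checks the code and does not show how reliable 1.5-fold counts of single arrays are.

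Values of all arrays are given for members over the floor ranging by 1.5-fold or more, for the member of highest mean in each role group and for ligand or receptor partners; further members were named after their values were seen. Members, lists and thresholds were chosen with earlier results of these data known. Ccr1l1 was put with the CC receptors after the data were seen. Gene order and promoters came from RefSeq for GRCm38.p6, which placed 44 of 45 members and held promoters for 34. Alternatives were other folds, floors and references, the median of probe sets, cyclic loess (limma 3.58.1, R 4.3.3) and centring on the median. Python 3.11.15 with pandas 2.3.3 was used.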

Additional observations from a re-analysis of the deposited data

Results flagged for a closer look

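The 2 knockouts moved in opposite directions, by at least 1.5-fold between their effects, in 5 of 27 members, against 8.17% of all genes over the floor. With 1 array in each group this difference was not tested. The PDE4D effect minus the PDE4B effect was -1.02 on the log2 scale for Ccl20, -0.72 for Cxcl17 and -0.60 for Ccl9, ligands that were slightly higher in 4B(-/-) and lower in 4D(-/-) than in their own wild-type lines. It was 0.71 for the lymph node homing receptor Ccr7 and 0.60 for the B-cell attractant Cxcl13, which were lower in 4B(-/-) and higher in 4D(-/-). By the brightest probe sets, Ccl20 in 4D(-/-) alone was past 1.5-fold within a line. Its readings of 62.5 in 4D(+/+) and 35.3 in 4D(-/-) were both below the floor. It was counted only through the PDE4B lines, so this call lends no support. The second probe set of Ccl9 was at -0.60 in 4D(-/-), and that of Cxcl13 was at -0.66 in 4B(-/-) and -0.01 in 4D(-/-).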

How the results depend on the processing

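With 1 array per strain there is no replicate to leave out. The counts of ligands lowest and receptors highest in C57, and the range without the C57 array, in which 6 members reached 1.5-fold, were chosen after seeing the data. No paired analysis was possible because each group has 1 array. Other scalings left most results as they were: of 32 log2 differences of the 8 members named for their range, 31 kept their call under cyclic loess and 31 under centring, the exceptions being Ccl8 in 4D(+/+) against C57 (0.57, and 0.59 under loess) and Cxcl9 in 4B(+/+) against C57 (0.60, and 0.58 under centring). Loess thus counted 2 members higher in 4D(+/+) than in C57 in place of 1. The median over all genes moved by no more than 0.04 under either scaling.

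The fold, the floor and the probe set rule changed the small counts. At 2-fold, 0 members were lower in either knockout than in its wild type and 0 were lower in either wild-type line than in C57, 2 were higher in 4B(+/+), and 3 ranged that far, where 0.104% to 1.83% of all genes passed in each direction of the 4 comparisons. With a floor of 7 on the log2 scale, 0 were lower in either knockout, 1 was higher in 4B(+/+) and 0 in 4D(+/+) than in C57, 5 members ranged by 1.5-fold and 6 of 11 ligands were lowest in C57. With the median of probe sets, 0 were lower in 4B(-/-) and 1 in 4D(-/-), 2 were higher and 1 lower in 4B(+/+) and 0 higher in 4D(+/+) than in C57, 4 ranged by 1.5-fold, 6 of 15 ligands were lowest and 2 of 7 receptors highest in C57. That setting mixes in dim probe sets and turned the difference of Ccl28 in 4D(-/-) to 0.0864. Shares of all genes past 1.5-fold were not computed for the higher floor, the median of probe sets, loess or the range without C57. The counts under these settings therefore show only how the count depends on the setting, and do not set the members against other genes.

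The reference changed the knockout results. Against C57, 2 members were higher and 2 lower in 4B(-/-), and 1 was higher and 0 lower in 4D(-/-), and Ccl28 turned to 1.02 and 0.57. With all wild-type arrays averaged as reference, 1 was higher in 4B(-/-) and 1 lower in 4D(-/-), Ccl20 in both cases. Beyond the construction of each setting, the cause was not tested. Values near or below 64 are poorly determined, which touches Ccl20, Ccl28 and Cxcl9 most.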

Other observations

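The 18 members below the floor were 12 ligands and 6 receptors. Their highest intensity in any array lay between 6.83 for Ccr3 and 61.0 for the eosinophil attractant Ccl11. The monocyte attractant Ccl2 read 26.9 in 4B(+/+) and 26.4 in each of the other 4 arrays. Cxcl10, an interferon-induced ligand of Cxcr3, read 37.1 in 4D(+/+) and 36.6 in each of the other 4, and the eosinophil attractant Ccl24 read 44.2 in 4D(-/-) and 44.4 in each of the other 4. Ccl12, a mouse ligand of Ccr2, was lowest in C57, at 29.2, with 40.0 to 44.6 in the lines, and Cxcl2, a neutrophil attractant, was highest in 4B(-/-), at 22.8, and lowest in 4D(-/-), at 14.3. At such intensities the order of the arrays is not reliable.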
